A study of Mus musculus with 9 samples.

Results

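This account follows 10 transcription factor genes that act early in adipocyte formation: Cebpa, Cebpb, Cebpd and Cebpg of the C/EBP family, Ebf1 and Ebf2, the zinc finger genes Zfp423 and Zfp467, and Stat5a and Stat5b. They were chosen by gene symbol, and 8 of the 10 were found that way among the 41761 genes of the table. Cebpd and Stat5a had no symbol there, and 1 row each was identified from its protein description, as given below. The cells were primary stromal vascular cells from the inguinal fat of wild-type C57BL/6J mice, differentiated in culture into white adipocytes with insulin, dexamethasone and isobutylmethylxanthine. Sodium alginate, a seaweed polysaccharide, was present throughout at 0, 50 or 100 µM, and each dose had 3 libraries of total RNA. The treatment protocol also lists rosiglitazone, a PPARγ agonist, at every dose including 0 µM, whereas the series' design text does not name it. Libraries were taken as 100 µM from their treatment label and library name, although their titles give 50 µM. RNA was collected on day 6 by the titles and on day 7 by the protocol. Whether the libraries of 1 dose stem from different cultures or mice is not labelled, and the spread behind each p-value may then be technical.

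In the textbook order of adipogenesis, C/EBPβ and C/EBPδ are induced first, by the cAMP and glucocorticoid signals of the differentiation medium, and they switch on Cebpa and Pparg, whose products then keep each other and the adipocyte programme active. EBF factors and ZFP423 mark and commit preadipocytes, and EBF2 is known for favouring beige identity and ZFP423 for favouring white identity. STAT5A and STAT5B carry growth hormone and prolactin signals and promote fat cell formation.

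Levels are FPKM, the fragments counted per kilobase of a gene after scaling for library depth, as the authors deposited them. Reads in genes, rebuilt from FPKM and gene length, summed to 14019672 to 17094467 per library. Differences between doses are log2 fold changes of FPKM + 1 from limma, with Benjamini-Hochberg adjustment over 12635 genes that reached 1 FPKM in at least 3 of the 9 libraries. A gene was called at an adjusted p below 0.05, and all 10 genes were tested. At 100 µM against 0 µM, 18.3% of all tested genes were called higher and 15.6% lower. The labels call the cells mature white adipocytes, and 9 of 9 tested adipocyte markers were higher at 100 µM than at 0 µM, with the 10 markers summing to 5197 to 5388 FPKM at 0 µM, 5559 to 6072 FPKM at 50 µM and 7761 to 8463 FPKM at 100 µM. Lep, the leptin gene, was at 0 in every library at 0 and 50 µM. Stromal progenitor markers were lower at 100 µM in 6 of 7 tested, with 9 of them summing to 765 to 851 FPKM at 0 µM, 710 to 817 FPKM at 50 µM and 442 to 513 FPKM at 100 µM. Macrophage markers were lower in 5 of 6 tested, with sums of 151 to 164, 154 to 163 and 116 to 124 FPKM at 0, 50 and 100 µM. Endothelial markers were lower in 6 of 7 tested (129 to 144, 124 to 135 and 109 to 113 FPKM). Of pericyte and smooth muscle markers 1 of 6, Acta2, was lower, with sums of 184 to 213, 189 to 219 and 124 to 138 FPKM. Acta2 alone averaged 177, 181 and 114 FPKM of these sums at 0, 50 and 100 µM. The median log2 fold change of the 6 at 100 µM against 0 µM was -0.03. Lymphocyte markers summed to at most 0.182 FPKM in any library, with Cd3d at 0 in all. In these bulk cultures a change in the number of cells of a type and a change in RNA per cell cannot be told apart, and the part these markers have in the results below was not tested.

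Cebpa, Cebpg and Stat5a had higher RNA at 100 µM. Among the genes matched, only Zfp423 held the exact letters searched for C/EBP, TTGCNNAA, in its upstream bases. Promoter sequences of these 4 genes are therefore printed first. Each is the 250 bases before a RefSeq start site on mouse build GRCm38.p6, on the strand of the gene, 5′ to 3′, with motif matches in capitals. Cebpa is at chr7:35119043-35119292 on the plus strand, Cebpg at chr7:35056567-35056816 on the minus strand, the first listed Stat5a start at chr11:100859406-100859655 on the plus strand, and the first listed Zfp423 start at chr8:87959596-87959845 on the minus strand.
Cebpa: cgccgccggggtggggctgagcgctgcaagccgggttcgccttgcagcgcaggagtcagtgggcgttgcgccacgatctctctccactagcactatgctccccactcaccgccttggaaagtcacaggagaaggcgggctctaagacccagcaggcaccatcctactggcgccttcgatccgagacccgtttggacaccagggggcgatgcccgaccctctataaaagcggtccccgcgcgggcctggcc
Cebpg: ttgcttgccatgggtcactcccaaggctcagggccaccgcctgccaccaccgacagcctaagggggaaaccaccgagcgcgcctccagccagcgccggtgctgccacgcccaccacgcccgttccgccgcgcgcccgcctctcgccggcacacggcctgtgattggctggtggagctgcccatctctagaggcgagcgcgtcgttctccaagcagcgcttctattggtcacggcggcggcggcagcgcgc
Stat5a: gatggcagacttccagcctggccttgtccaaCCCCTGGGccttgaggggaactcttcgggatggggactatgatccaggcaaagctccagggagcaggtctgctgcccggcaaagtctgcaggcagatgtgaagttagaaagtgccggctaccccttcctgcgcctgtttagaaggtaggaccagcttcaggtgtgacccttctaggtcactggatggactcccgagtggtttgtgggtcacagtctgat
Zfp423: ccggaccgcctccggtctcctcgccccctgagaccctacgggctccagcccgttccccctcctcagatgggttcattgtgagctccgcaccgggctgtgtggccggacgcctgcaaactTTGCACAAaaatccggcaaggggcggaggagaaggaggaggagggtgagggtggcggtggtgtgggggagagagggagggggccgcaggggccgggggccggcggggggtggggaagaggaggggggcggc
The motifs searched, on both strands, were TTGCNNAA for C/EBP, TTCNNNGAA for STAT, CCCNNGGG for EBF and TGACGT for the cAMP response element. Over all 32851 RefSeq promoter windows of this length, 9.56% held the C/EBP letters, 7.02% the STAT letters, 11.82% the EBF letters and 6.47% the cAMP response letters. RefSeq windows were matched for 8 of the 10 genes, 12 windows in all, and Cebpd and Ebf2 were not matched. The Zfp423 window held TTGCACAA, 131 to 124 bases before the start. The Stat5a window held the EBF match CCCCTGGG, 219 to 212 bases before the start, and Cebpb, Zfp467 and the second Zfp423 start each had 1 EBF match. The Cebpa and Cebpg windows held none of these letters, which says only that they are absent from those 250 bases. Sites spelled otherwise would be missed by this search, and ttgcgcca in the Cebpa window was not counted as a match. The 4 printed windows held G and C at 66.4% for Cebpa, 70.8% for Cebpg, 57.6% for Stat5a and 71.6% for Zfp423, beside a median of 52.4% over all windows. Of the others, both Ebf1 starts (40.0% and 52.0%) and the second Stat5b start (46.4%) lay below that median. A match is a string of letters and not a measured binding site.

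At 100 µM alginate, 3 of the 8 genes found by symbol, Cebpa, Cebpg and Ebf2, were higher than at 0 µM and 0 were lower, and Stat5a, found by its description, was higher too. Over all tested genes 18.3% were called higher and 15.6% lower in this comparison. The median log2 fold change of the 8 genes was 0.23, beside 0.01 over all tested genes. Within the C/EBP family the change at the highest dose was largest for Cebpa, at 1.54-fold, while Cebpb and Cebpd did not pass the threshold. Whether Cebpa and Cebpb changed by different amounts is tested below.

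**Figure D1:**
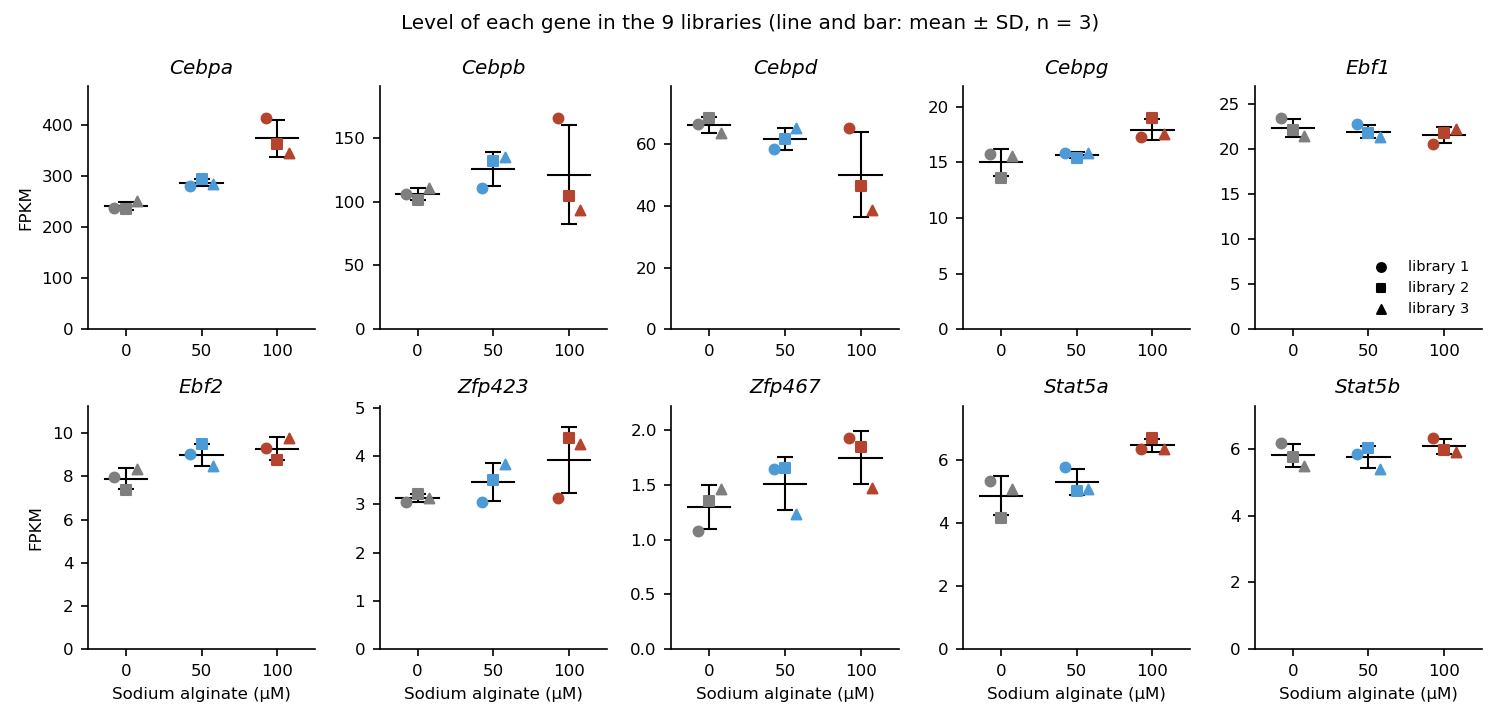
Level of each of the 10 genes in the 9 libraries, in FPKM from 0 upwards, against the sodium alginate dose in µM. Points are libraries, with the marker shape giving the library number, and the line and bar are the mean ± SD (n = 3). The Cebpa libraries stand at 346 to 415 FPKM at 100 µM and 235 to 251 FPKM at 0 µM. Library 1 at 100 µM lies apart from the other two for Cebpb, Cebpd and Zfp423.

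Cebpa encodes C/EBPα, the C/EBP factor that sustains Pparg and the mature adipocyte programme. It is the row MGP_C57BL6NJ_G0032546, a protein-coding gene at 36180150 to 36182785 on the plus strand of chromosome 7 of the C57BL/6NJ assembly, whose coordinates the table uses. Its 3 libraries read 239, 235 and 251 FPKM at 0 µM, then 281, 295 and 286 FPKM at 50 µM, and 415, 363 and 346 FPKM at 100 µM. The 3 doses did not overlap, and every library at 50 µM lay between those of the other doses. Cebpa was 374 ± 36.3 FPKM at 100 µM and 242 ± 8.26 FPKM at 0 µM (SD, n = 3 each). The log2 fold change was 0.63 ± 0.066 (SE), with a limma adjusted p of 0.000135. It was also higher at 100 µM than at 50 µM, by 0.38 (limma adjusted p = 0.00341). At 50 µM against 0 µM the difference of 0.25 was not called (limma adjusted p = 0.117). Cebpa was called there without 100 µM library 1 (limma adjusted p = 0.0485). Leaving that library out kept the difference at 0.25 and altered only the shared spread and the adjustment. The gene was read 9126 to 18252 times per library, and the antisense gene Gm45091, which overlaps it by 313 bases, 12 to 32 times. Strand use in the counting is not stated, so reads of the pair may be mixed. Cebpg, Ebf1 and Ebf2 also overlap annotated genes, none of which had more than 19 reads in a library.

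Cebpb encodes C/EBPβ, one of the factors induced earliest by the medium. Its row, MGP_C57BL6NJ_G0027341, lies at 178519948 to 178521451 on the plus strand of chromosome 2. The libraries read 106, 102 and 111 FPKM at 0 µM, then 111, 132 and 135 FPKM at 50 µM, and 166, 104 and 93.4 FPKM at 100 µM. At 100 µM library 1 was above every other library and library 3 below every other, so the dose with the widest spread overlapped both others. The log2 fold change at 100 µM against 0 µM was 0.15 ± 0.18 (limma adjusted p = 0.580), with a 95% interval of -0.26 to 0.55. Without 100 µM library 1 it was -0.10, not called, and Cebpb was then lower at 100 µM than at 50 µM, at -0.34 on the log2 scale (limma adjusted p = 0.0311), where all libraries together gave -0.09 (limma adjusted p = 0.748). The direction for Cebpb therefore rests on that library.

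Cebpd encodes C/EBPδ, the other early C/EBP factor. The row taken for it, MGP_C57BL6NJ_G0036893, carries a description that names Cebpd and lies between Mzt2 and Spidr, the neighbours that Cebpd has in RefSeq. The table annotates this row as a pseudogene, at 13140283 to 13141463 on the plus strand of chromosome 16. It read 66.5, 68.5 and 63.6 FPKM at 0 µM, then 58.2, 61.5 and 65.3 FPKM at 50 µM, and 65.2, 46.5 and 38.6 FPKM at 100 µM. Libraries 2 and 3 at 100 µM were below every other library, and library 1 lay among those at 0 µM. The log2 fold change at 100 µM against 0 µM was -0.43 ± 0.15 and missed the threshold (limma adjusted p = 0.0567). Cebpd was called lower without 100 µM library 1 (-0.63, limma adjusted p = 0.000933), on the TPM scale (-0.51, limma adjusted p = 0.0221) and with quantile normalization (-0.53, limma adjusted p = 0.0211). It was also called lower once the authors' library factor was taken out (limma adjusted p = 0.0325), with only genes at 5 FPKM or more tested (limma adjusted p = 0.0355), and with voom in limma on rebuilt reads (limma adjusted p = 0.00674). Against 50 µM the value at 100 µM was -0.33 (limma adjusted p = 0.155), and it was called without that same library 1 (-0.53, limma adjusted p = 0.00340) and with voom (limma adjusted p = 0.0430). Without 100 µM library 3 the values were smaller and not called, -0.26 against 0 µM (limma adjusted p = 0.152) and -0.16 against 50 µM (limma adjusted p = 0.419).

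Cebpg encodes C/EBPγ, a partner that forms dimers with other C/EBP and ATF proteins and lacks a strong activation domain. Its row, MGP_C57BL6NJ_G0032545, lies at 36099247 to 36109397 on the minus strand of chromosome 7, 70.75 kb from Cebpa. The libraries read 15.8, 13.6 and 15.6 FPKM at 0 µM, then 15.8, 15.3 and 15.8 FPKM at 50 µM, and 17.2, 19.0 and 17.6 FPKM at 100 µM. Every library at 100 µM was above the 6 others, and the other doses overlapped. Cebpg was 17.9 FPKM on average at 100 µM and 14.98 FPKM at 0 µM, a difference of 0.25 ± 0.062 on the log2 scale (limma adjusted p = 0.0132). The call was lost on the TPM scale (0.18, limma adjusted p = 0.0660) and without 100 µM library 2 (0.21, limma adjusted p = 0.0510). Against 50 µM the difference was 0.18 (limma adjusted p = 0.0578). It was the same size but called without 0 µM library 2 (limma adjusted p = 0.0261), a library outside that comparison.

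Of the summed FPKM of the 4 C/EBP genes, Cebpa made up 56.3% ± 0.517 at 0 µM, 58.6% ± 1.72 at 50 µM and 66.8% ± 3.77 at 100 µM (SD, n = 3 each). The Cebpd share lay between 14.4 and 16.4% at 0 µM, between 12.2 and 13.0% at 50 µM, and between 7.79 and 9.83% at 100 µM, with no overlap between doses. For Cebpb it lay between 24.2 and 25.2% at 0 µM, between 23.8 and 26.9% at 50 µM, and between 18.9 and 25.0% at 100 µM, where library 1 was the highest. A share depends on the levels of all 4 genes. Cebpd itself read 65.2 FPKM in 100 µM library 1, within its 0 µM range of 63.6 to 68.5 FPKM, though its share there was 9.83%. These shares are a description and were not tested.

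Deviations of each gene from its own mean over the 9 libraries show how the members vary among themselves. In 100 µM library 1, Cebpa and Cebpb were 0.49 and 0.51 above their means on the log2 scale, and Cebpd was 0.16 above. In 100 µM library 3 the same genes were at 0.22, -0.31 and -0.59. Cebpa, Cebpb, Cebpd, Zfp467 and Stat5b were each highest in library 1 among the 3 at this dose. Cebpg, Ebf1 and Zfp423 were each lowest in library 1, where Ebf2 and Stat5a were neither highest nor lowest. That library also had the most rebuilt reads, and the part of depth in these values was not tested.

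**Figure D2:**
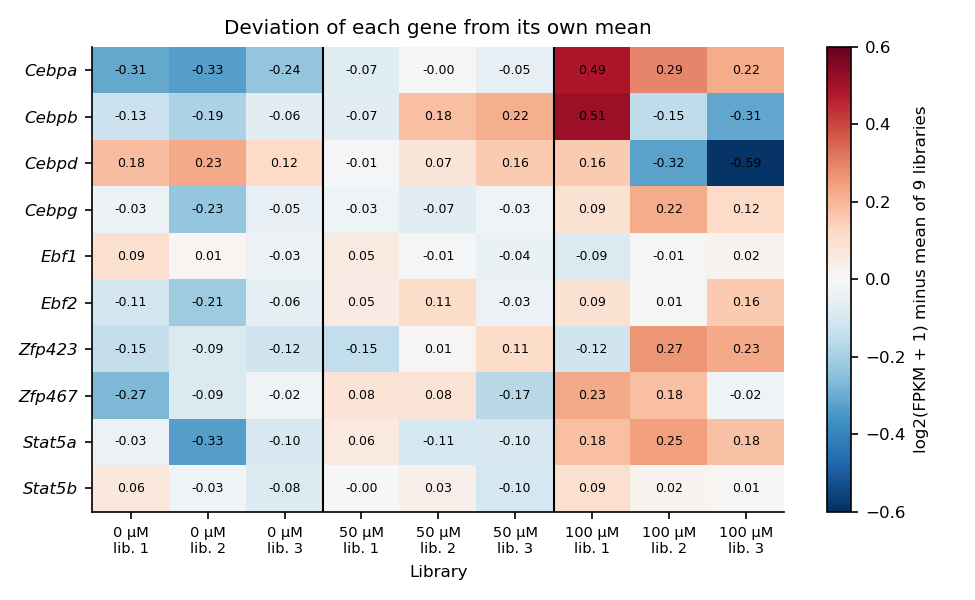
Heat map of log2(FPKM + 1) minus the mean of the 9 libraries, with 1 row per gene and 1 column per library in order of dose. Red is above the gene's own mean and blue below it, with the values printed in the cells. Cebpa reaches 0.49 at 100 µM and -0.33 at 0 µM, while Cebpd reaches -0.59 at 100 µM and 0.23 at 0 µM.

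Ebf1 and Ebf2 encode early B cell factors, DNA-binding proteins of the preadipocyte. Ebf1, at 44759186 to 45176808 on the plus strand of chromosome 11 (MGP_C57BL6NJ_G0018578), read 23.4, 22.1 and 21.4 FPKM at 0 µM, then 22.7, 21.7 and 21.3 FPKM at 50 µM, and 20.6, 21.8 and 22.2 FPKM at 100 µM. All 3 doses overlapped, and the log2 fold change at 100 µM against 0 µM was -0.05, with a 95% interval of -0.16 to 0.06 (limma adjusted p = 0.485). Ebf2, at 64775925 to 64989960 on the plus strand of chromosome 14 (MGP_C57BL6NJ_G0021907), read 7.98, 7.37 and 8.33 FPKM at 0 µM, then 9.04, 9.49 and 8.48 FPKM at 50 µM, and 9.32, 8.76 and 9.80 FPKM at 100 µM. Every library at 50 and 100 µM was above the 3 at 0 µM, and the 50 and 100 µM libraries overlapped. Ebf2 was higher at 100 µM than at 0 µM by 0.21 ± 0.062 (limma adjusted p = 0.0280). This call did not hold in 8 of 20 other settings. It was lost without 0 µM library 1 (limma adjusted p = 0.0586) or library 2 (limma adjusted p = 0.0957), and without 100 µM library 1 (limma adjusted p = 0.0651) or library 3 (limma adjusted p = 0.0920). It was also lost on the TPM scale (0.15, limma adjusted p = 0.182), with the factor per library removed (limma adjusted p = 0.0946) and with no filter (limma adjusted p = 0.0552). At 50 µM against 0 µM Ebf2 differed by 0.17 (limma adjusted p = 0.250).

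Zfp423 encodes a zinc finger protein that commits stromal cells to the adipocyte lineage and dampens the beige programme. Its row, MGP_C57BL6NJ_G0034410, lies at 92040020 to 92360462 on the minus strand of chromosome 8. It read 3.05, 3.22 and 3.13 FPKM at 0 µM, then 3.05, 3.50 and 3.83 FPKM at 50 µM, and 3.12, 4.38 and 4.25 FPKM at 100 µM. Libraries 2 and 3 at 100 µM were above all others, and library 1 lay within the range of 0 µM. The difference at 100 µM against 0 µM was 0.24 ± 0.11 (limma adjusted p = 0.118), and without 100 µM library 1 it was 0.36 and called (limma adjusted p = 0.0133). Zfp467 encodes a zinc finger protein that promotes adipocyte over bone cell formation in mouse marrow stroma. At 48486901 to 48504559 on the minus strand of chromosome 6 (MGP_C57BL6NJ_G0031129), it had the fewest reads of the members, 63 to 130 per library. It read 1.08, 1.36 and 1.47 FPKM at 0 µM, then 1.65, 1.65 and 1.23 FPKM at 50 µM, and 1.93, 1.84 and 1.47 FPKM at 100 µM. Every library at 100 µM was above the 3 at 0 µM, with nearest values of 1.472 FPKM at 100 µM and 1.465 FPKM at 0 µM, while 50 µM overlapped both. The difference of 0.26 ± 0.12 at 100 µM against 0 µM was not called (limma adjusted p = 0.122).

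Stat5a and Stat5b encode paired signal transducers of cytokine receptors and are neighbours on chromosome 11, 9.605 kb apart. The row taken for Stat5a, MGP_C57BL6NJ_G0019563, names Stat5a in its description and lies between Stat5b and Stat3 as in RefSeq, at 106846037 to 106876362 on the plus strand. It read 5.33, 4.16 and 5.06 FPKM at 0 µM, then 5.76, 5.02 and 5.06 FPKM at 50 µM, and 6.35, 6.70 and 6.33 FPKM at 100 µM. Every library at 100 µM was above the 6 others. Stat5a was higher at 100 µM than at 0 µM by 0.36 ± 0.083 (limma adjusted p = 0.00939), a call that held in all 20 other settings. Against 50 µM the difference was 0.25 (limma adjusted p = 0.0545), and it was 0.30 and called without 50 µM library 1 (limma adjusted p = 0.0445). It stayed at 0.25 but was called without 0 µM library 1 (limma adjusted p = 0.0497) or 0 µM library 2 (limma adjusted p = 0.0222). Those libraries are outside that comparison. Stat5b, at 106762175 to 106836431 on the minus strand (MGP_C57BL6NJ_G0019562), read 6.18, 5.74 and 5.49 FPKM at 0 µM, then 5.85, 6.01 and 5.39 FPKM at 50 µM, and 6.33, 5.96 and 5.91 FPKM at 100 µM. The doses overlapped, and the difference at 100 µM against 0 µM was 0.06, with a 95% interval of -0.08 to 0.19 (limma adjusted p = 0.522). Its sign turned on the TPM scale and with the factor per library removed, both at -0.01. Stat5a and Stat5b share much of their sequence, so reads may have been split between them.

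**Figure D3:**
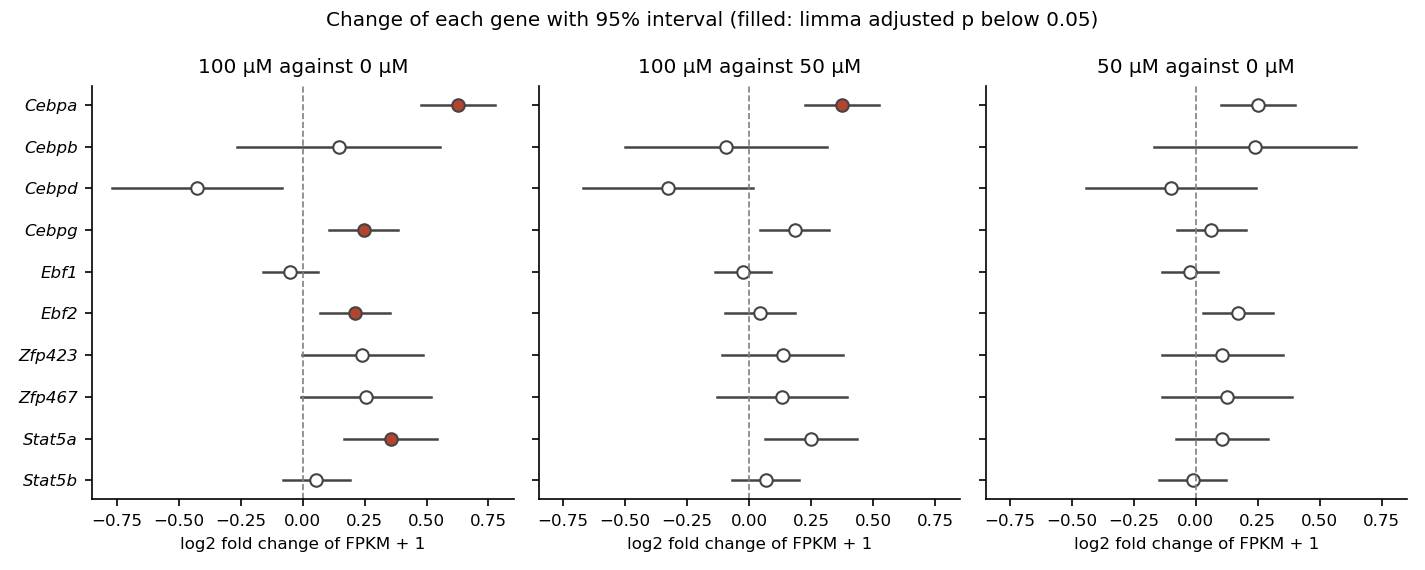
Log2 fold change of FPKM + 1 of each gene, with its 95% interval, for 100 µM against 0 µM, 100 µM against 50 µM and 50 µM against 0 µM. Filled points passed a limma adjusted p of 0.05. Cebpa, Cebpg, Ebf2 and Stat5a are filled at 100 µM against 0 µM, Cebpa alone at 100 µM against 50 µM, and no gene at 50 µM against 0 µM.

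The lower dose was compared with the same control libraries. At 50 µM against 0 µM, limma called 0 of the 8 genes, where 0.356% of all tested genes were called higher and 0.435% lower. Unadjusted p was below 0.05 for 2 of the 8, Cebpa and Ebf2, and for 1814 of all tested genes. Voom in limma called 1 of the 8, Cebpa (limma adjusted p = 0.0210). At 100 µM against 50 µM, 1 of the 8 was higher, Cebpa, and 0 were lower, beside 13.2% of all genes higher and 12.0% lower. That count was 2 without 0 µM library 2, with Cebpg added, and 2 without 100 µM library 1, with Cebpb called lower. Whether the middle dose lay off the midpoint of the other doses was tested too, and limma called 0 of the 8, beside 0.989% of all genes above the midpoint and 0.499% below it. No gene of the 8 had an unadjusted p below 0.05 there, the values running from -0.06 for Cebpa to 0.17 for Cebpb.

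Because a call in 1 gene and none in its relative does not show a difference between them, ratios within each library were tested over the 3 doses with an exact permutation test, two-sided. The ratio of Cebpa to Cebpb, each as FPKM + 1, was 2.24, 2.30 and 2.25 at 0 µM, 2.53, 2.23 and 2.11 at 50 µM, and 2.49, 3.45 and 3.67 at 100 µM. The ratio in libraries 2 and 3 at 100 µM was above all others, and the test gave p = 0.0714 (exact permutation, adjusted over 3 ratios 0.0714). Ebf2 to Ebf1 was 0.368, 0.362 and 0.417 at 0 µM, 0.423, 0.462 and 0.425 at 50 µM, and 0.478, 0.429 and 0.466 at 100 µM. All libraries with alginate were above the 3 without, with p = 0.0179 (exact permutation, adjusted 0.0536), and without 0 µM library 3 the adjusted p was 0.0214 by the same exact test. In 12 of 13 other settings the Ebf2 to Ebf1 ratio did not pass, with an exact permutation adjusted p of up to 0.125. Stat5b to Stat5a was 1.14, 1.31 and 1.07 at 0 µM, 1.01, 1.17 and 1.05 at 50 µM, and 0.998, 0.904 and 0.943 at 100 µM. The 100 µM libraries were the lowest 3, with p = 0.05 (exact permutation, adjusted 0.0714), and without 0 µM library 3 the adjusted p was 0.0482 by the same exact test. This ratio too did not pass in 12 of 13 other settings, with an exact permutation adjusted p of up to 0.132. With all 9 libraries, then, 0 of 3 ratios passed after adjustment, at a smallest possible p of 0.00357, and a difference in change between the relatives was not shown.

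**Figure D4:**
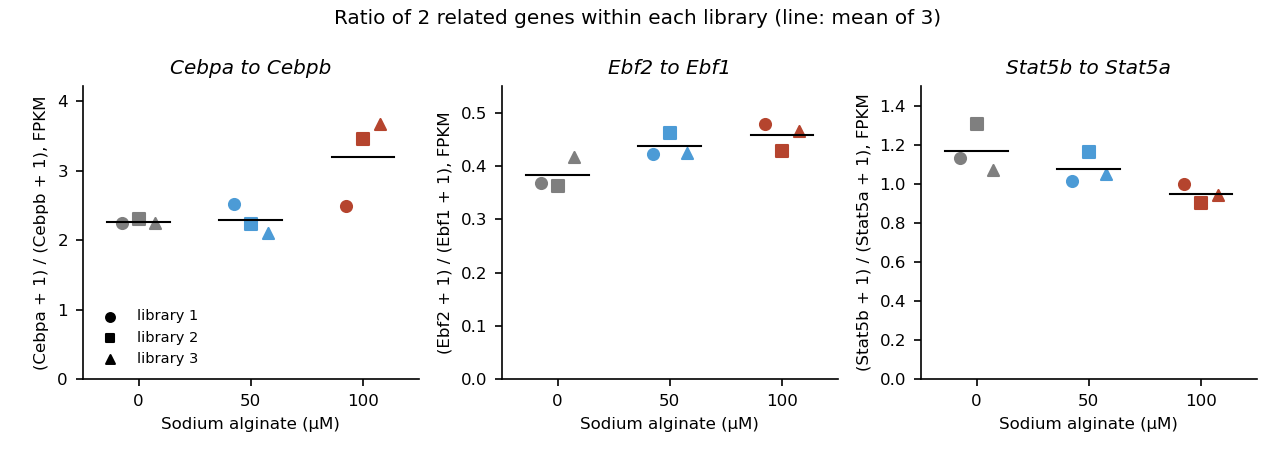
Ratio of 2 related genes within each library, as (FPKM + 1) over (FPKM + 1), on linear axes from 0, against the alginate dose in µM. Points are libraries and lines are the mean of 3. Cebpa to Cebpb averages 3.20 at 100 µM, with a wide spread, and 2.27 at 0 µM, Ebf2 to Ebf1 lies lowest at 0 µM, and Stat5b to Stat5a lies lowest at 100 µM.

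Levels per gene length gave nearly the same order at every dose. Cebpa was the most abundant, at percentile 98.7 of tested genes at 0 µM, followed by Cebpb at 96.3, Cebpd at 93.6, Ebf1, Cebpg, Ebf2, the STAT5 pair, Zfp423 and Zfp467 at 8.19. At 0 µM no neighbours in that order overlapped in FPKM. At 50 and 100 µM the ranges of Stat5a and Stat5b overlapped, and no others did. Stat5b had the higher mean at 0 and 50 µM and Stat5a at 100 µM.

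The genes whose pattern was most like that of Cebpa, Cebpb, Cebpd and Zfp423 were sought among 7166 other protein-coding genes, each with a mean of at least 5 FPKM, by the root mean square difference of centred log2 values over 9 libraries. Zfp423 itself lay under that level in every library. Nearest to Cebpa were Nr1h3, which encodes the liver X receptor α (0.0523), Uqcrfs1, a subunit of respiratory complex III (0.0551), and Tkt, which encodes transketolase (0.0565), where Cebpa itself varied by 0.267. Nearest to Cebpd, which varied by 0.259, were Csf3, Mif and Sod3, at 0.103, 0.104 and 0.105. Zfp423, which varied by 0.154, had Smad2, Chac2 and Ube2k at 0.0634, 0.0667 and 0.0701. Cebpb, which varied by 0.241, had no neighbour as close relative to its own spread, Zfp622, Scand1 and Sap30l lying at 0.121, 0.127 and 0.131. The measure is a description over the same libraries.

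Other genes of these pathways were counted in 6 lists, and the medians are read beside the 0.01 of all tested genes. The counts are read beside shares over all tested genes. These were 18.3% higher and 15.6% lower at 100 µM, and 0.356% higher at 50 µM, each against 0 µM. Of genes known as C/EBPα targets in adipocytes, 14 of 15 tested were higher at 100 µM than at 0 µM and 0 were lower, with a median log2 fold change of 0.57. The exception was Gys2, the liver glycogen synthase gene, at 2.88 FPKM at 100 µM and 2.80 FPKM at 0 µM. Slc2a4, the insulin-responsive glucose transporter GLUT4, was 50.9 ± 1.63 FPKM at 100 µM and 22.7 ± 2.84 FPKM at 0 µM. Agpat2, an enzyme of triglyceride synthesis, was 759 FPKM at 100 µM and 399 FPKM at 0 µM, which is 0.93 on the log2 scale (limma adjusted p = 1.5e-05). Cidec, a lipid droplet protein gene, was 1159 FPKM at 100 µM and 699 FPKM at 0 µM. Plin1, which coats the droplet, was 311 FPKM at 100 µM and 209 FPKM at 0 µM. Adipoq, the adiponectin gene, was 956 ± 64.9 FPKM at 100 µM and 594 ± 26.7 FPKM at 0 µM. Many of these targets are also adipocyte markers, whose sums moved as given above. At 50 µM against 0 µM, 3 of the 15 were higher, Agpat2, Cidec and Plin1, and that count was 0 without any 1 of the 0 or 50 µM libraries.

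Of early inducers and genes of the glucocorticoid and cAMP response, 2 of 18 were higher at 100 µM and 8 were lower. Their median was -0.16, and the shares over all tested genes were 18.3% higher and 15.6% lower. The 2 higher ones in the list were Atf2 and Tsc22d3. Fos, an AP-1 subunit gene, was 20.3 ± 0.708 FPKM at 100 µM and 28.2 ± 1.91 FPKM at 0 µM. Klf4 and Egr2, which encode activators of Cebpb in mouse preadipocytes, were 17.5 ± 0.286 and 61.8 ± 2.63 FPKM at 100 µM, against 24.1 ± 0.855 and 80.6 ± 3.22 FPKM at 0 µM. Fosl2 was 26.1 FPKM at 100 µM and 33.7 FPKM at 0 µM. The number lower was 5 without 0 µM library 3 or without 100 µM library 2, and 11 on the TPM scale, where 0 were higher. The number higher was 1 without 50 µM library 1, without 100 µM library 1 or 2, or without any 1 of the 0 µM libraries.

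Among partners of the C/EBP proteins, 3 of 10 were higher at 100 µM and 0 lower, beside 18.3% and 15.6% of all tested genes. The partners' median was 0.03 and ran from -0.06 to 0.07 over the 20 other settings. Ddit3, which encodes the C/EBP relative CHOP, was 17.5 ± 1.10 FPKM at 100 µM and 14.2 ± 1.19 FPKM at 0 µM. Dbp and Tef, of the PAR family of leucine zipper factors, were 3.63 and 10.5 FPKM at 100 µM, against 2.13 and 8.18 FPKM at 0 µM. Trib2, which promotes C/EBPα breakdown, was 2.00 FPKM at 100 µM and 2.40 FPKM at 0 µM, not called (limma adjusted p = 0.164).

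In the growth hormone, prolactin and JAK-STAT list, 5 of 21 were higher at 100 µM and 6 lower. Their median was -0.08, and the shares over all tested genes were 18.3% higher and 15.6% lower. The 5 higher genes of the list included Ghr and Prlr, the growth hormone and prolactin receptors, with Igf1 and Aox1. The lower ones included Osmr, Il6st, Jak1 and Jak2. Osmr, the oncostatin M receptor, was 13.9 ± 0.364 FPKM at 100 µM and 21.9 ± 0.143 FPKM at 0 µM. Il6st, the shared receptor chain gp130, was 94.4 ± 8.29 FPKM at 100 µM and 140 ± 9.31 FPKM at 0 µM. Jak1 was 52.4 FPKM at 100 µM and 65.3 FPKM at 0 µM. Its relative Jak2 was 15.6 FPKM at 100 µM and 20.4 FPKM at 0 µM. Not called were Lifr, the leukemia inhibitory factor receptor (-0.08, limma adjusted p = 0.351), and the kinase gene Tyk2 (0.13, limma adjusted p = 0.310). On the TPM scale 3 were higher and 6 lower.

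For the EBF family's partners and the BMP pathway linked to ZFP423, 0 of 19 were higher at 100 µM and 7 were lower. Their median was -0.14, and the shares over all tested genes were 18.3% higher and 15.6% lower. Wisp2, a secreted Wnt-responsive protein that in cultured preadipocytes holds ZFP423 in the cytosol, was 69.1 ± 2.84 FPKM at 100 µM and 121 ± 5.36 FPKM at 0 µM, which is -0.80 on the log2 scale (limma adjusted p = 1.6e-05). Bmp4, a ligand that commits adipocyte precursors, was 3.79 ± 0.0365 FPKM at 100 µM and 5.05 ± 0.298 FPKM at 0 µM. Id2 and the inhibitory Smad7 were 43.3 and 15.8 FPKM at 100 µM, against 60.2 and 20.4 FPKM at 0 µM. The others called lower were Zfp521, a ZFP423 relative that opposes EBF1, Smad1 and Smad4.

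Among 23 other adipogenic or anti-adipogenic transcription factors, 7 were higher at 100 µM and 9 lower, beside 18.3% and 15.6% of all tested genes. The median of these factors was -0.03. Pparg, the central adipogenic nuclear receptor, was 54.7 ± 3.73 FPKM at 100 µM and 41.2 ± 0.749 FPKM at 0 µM, which is 0.40 on the log2 scale (limma adjusted p = 0.000611). Srebf1, a regulator of lipid synthesis genes, was 109 FPKM at 100 µM and 71.4 FPKM at 0 µM. The level of Nr1h3 was 36.0 FPKM at 100 µM and 23.7 FPKM at 0 µM. Klf3, which encodes a Krüppel-like repressor, was 10.4 FPKM at 100 µM and 13.2 FPKM at 0 µM. On the TPM scale 4 were higher and 10 lower, and without 0 µM library 2 or library 3 the number lower was 5.

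**Figure D5:**
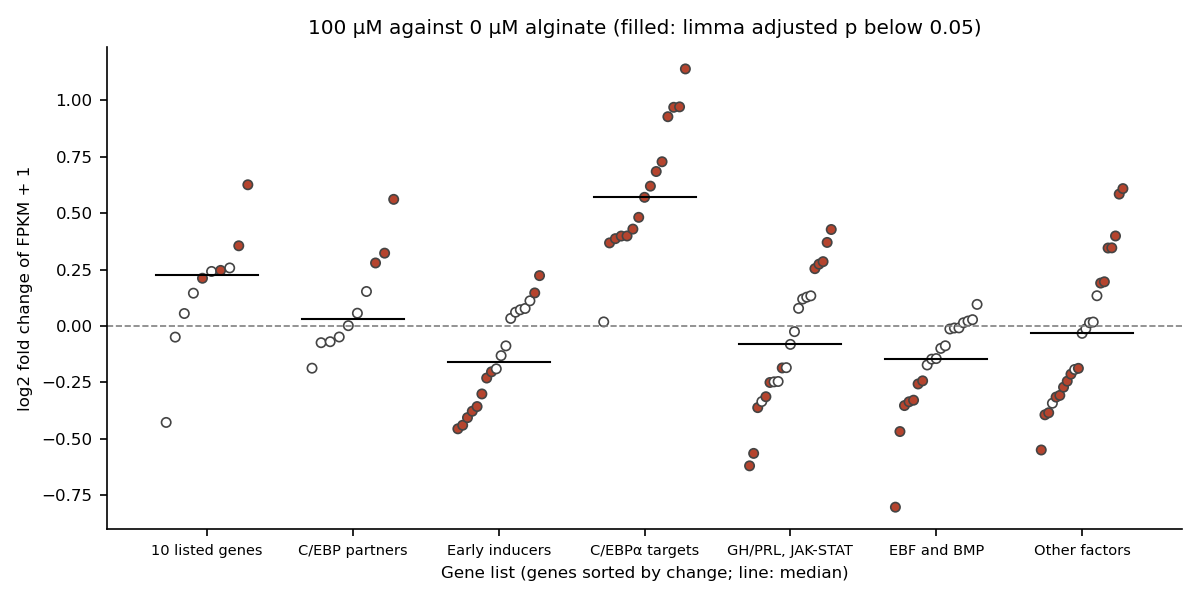
Log2 fold change of FPKM + 1 at 100 µM against 0 µM for the 10 genes and 6 lists of related genes, with genes sorted by change within a list, the line at the median and filled points at a limma adjusted p below 0.05. The C/EBPα targets lie above 0 with a median of 0.57, and the early inducers and the EBF and BMP genes have medians of -0.16 and -0.14.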

How the data were processed

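The authors deposited 1 table of FPKM values for 41761 genes in 9 libraries, with gene lengths and descriptions per the file headers. The gene identifiers are those of the C57BL/6NJ assembly, and gene coordinates are given on it unconverted, although GRCm38 and mm10 stand in the submitters' processing notes. Which aligner and counter made the values, and whether strand was used, is not given in the sources used here. FPKM times gene length gave whole reads for 100% of values within 0.01 read, and libraries of 1 dose differed beyond counting noise (chi-square per gene 3.39 to 7.85).

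Values were analysed as log2(FPKM + 1) in limma 3.58.1 (R 4.3.3), with 1 mean per dose over the 9 libraries, a variance trend and two-sided tests. A fold change on this scale understates changes of genes with low values. Ratios were tested over all 1680 assignments of libraries to doses. Alternatives were 2 other pseudocounts, 2 other filters, 3 other scalings, other fits, a replicate block and leaving out each library. Leaving out a library of a dose not compared keeps the fold change and alters only the shared spread and the adjustment. Voom in limma on rebuilt reads used median-of-ratios factors and was chosen after seeing the data. The procedure was tested on simulated data.

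The 10 genes and the lists were chosen with earlier results of these data known. Named from each list were the 4 tested genes with the smallest p at 100 µM against 0 µM, with Pparg and Adipoq always, and genes outside this rule were named after their values were seen. Of the listed genes, 12 of 12 C/EBP partners, 18 of 18 early inducers, 17 of 18 C/EBPα targets, 22 of 23 JAK-STAT genes, 23 of 24 EBF and BMP genes and 27 of 27 other factors were matched by symbol. A few listed genes are not reported here.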

Additional observations from a re-analysis of the deposited data

How the results depend on the processing

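Across 20 alternatives to the reported setting, Cebpa (limma adjusted p from 4.90e-08 to 0.00114) and Stat5a (limma adjusted p from 0.000664 to 0.0363) stayed called higher at 100 µM against 0 µM. Of the 8 genes found by symbol, 1 rather than 3 was called there on the TPM scale, Cebpa. Ebf2 lost its call in 8 of the 20 alternatives. Cebpg lost its call in 2, on the TPM scale and without 100 µM library 2. Without 100 µM library 1, Ebf2 was lost and Zfp423 was called instead. At 50 µM against 0 µM the count among the 8 genes was 1 rather than 0 with voom, and 0 to 1 when a library was left out. At 100 µM against 50 µM it was 2 rather than 1 with at least 5 FPKM required, with only the doses compared and with voom, and 1 to 2 when a library was left out. The cause of these changes was not tested. The authors' factor per library, their scaling total divided by the rebuilt reads, differed between doses. No 100 µM library exceeded 0.976, and the lowest value at the other doses was 1.0128. With that factor removed, the median log2 fold change of all tested genes, 100 µM against 0 µM, was -0.05 instead of 0.01. The part of this factor in the changed calls was not tested. With a library left out, the log2 ratio at 100 µM minus 0 µM was 0.37 to 0.65 for Cebpa to Cebpb, 0.22 to 0.32 for Ebf2 to Ebf1 and -0.36 to -0.22 for Stat5b to Stat5a. Library numbers did not pair the samples (correlations of same-numbered libraries from -0.09 to 0.04), and with a replicate block 2 of the 8 genes were called at 100 µM against 0 µM, Ebf2 being lost (limma adjusted p = 0.0550). Over all tested genes, 2314 were higher and 1965 lower at 100 µM against 0 µM, against 1620 and 2636 on the TPM scale and 1731 and 2658 with the authors' factor per library removed. At 100 µM against 50 µM, 1663 were higher and 1510 lower, against 1050 and 2040 on the TPM scale. The count over all genes at 50 µM against 0 µM was 100, and ran from 0, with only the doses compared among others, to 348 with voom. The count against the midpoint was 188 and ran from 0 to 689. The planned voom fit with TMM factors was not run. Read depth limits Zfp467 most, with 63 to 130 reads per library.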

Other observations

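Of 5 tested markers of brown and beige adipocytes, the identity that EBF2 favours and ZFP423 opposes, 4 were higher at 100 µM against 0 µM. They were Cidea, Cox8b, Elovl3 and Ppargc1a, and 18.3% of all tested genes were called higher there. The count was 3 of 5 with either smaller pseudocount, with no filter, on the TPM scale, with the library factor taken out and without the variance trend. It was also 3 of 5 without any 1 of the 100 µM libraries and without 0 µM library 2 or 3. Elovl3, a fatty acid elongase gene, was the most abundant of them, with means of 108 FPKM at 0 µM, 150 FPKM at 50 µM and 239 FPKM at 100 µM. Cidea averaged 0.489 FPKM at 0 µM, 0.956 FPKM at 50 µM and 1.82 FPKM at 100 µM. Its 0 and 50 µM libraries alone would not have passed the filter, so its call lends no support of its own. Cox8b averaged 3.25 FPKM at 0 µM, 2.75 FPKM at 50 µM and 6.04 FPKM at 100 µM. Dio2, which was not called, averaged 0.921 FPKM at 100 µM and 1.13 FPKM at 0 µM. Ucp1, the uncoupling protein gene that defines these cells, was under the filter, with means of 0.192 FPKM at 0 µM, 0.176 FPKM at 50 µM and 0.269 FPKM at 100 µM. Prdm16 and Zfp516, counted in the EBF list, were not called (limma adjusted p = 0.941 and 0.921). They averaged 1.19 and 7.68 FPKM at 100 µM, against 1.18 and 7.72 FPKM at 0 µM. Of the remaining C/EBP genes, Cebpe averaged 0.0640 FPKM at 50 µM and was at 0 at the other doses. The C/EBPα target Pck1, of glyceroneogenesis, averaged 1.11 FPKM at 100 µM and 0.614 FPKM at 0 µM, untested.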
